A study of Homo sapiens with 4 samples.

Results

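LCORL and LCOR are paralogous genes, and the circular RNAs that carry their names are described here. Members were all rows of the deposited circle table whose gene field names LCORL or LCOR exactly and whose circle type is not antisense. These were 52 of 211599 circles, 22 of LCORL and 30 of LCOR. LCORL was selected on a measured value, its higher summed circular counts after HNRNPL knockdown in these same libraries. Its difference between the groups is therefore given as a description, and the pair carries no test of that contrast. LCOR is the paralog proposed with it.

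The 4 libraries were made from a radiation-resistant derivative of the human breast cancer line MDA-MB-468, which had received 50 Gy in fractions. Controls (2 libraries) carried a control short hairpin RNA, and knockdowns (2 libraries) carried one that targets HNRNPL, whose product binds CA-rich RNA and takes part in splicing. All libraries thus share the resistant derivative, and the labels name 1 HNRNPL hairpin. No sense circle names HNRNPL alone, so the knockdown itself could not be checked from these counts. The libraries of each group are labelled as biological replicates, with no word on separate cultures, so the spread between them may be partly technical. Total counts were 472428 and 556578 in controls and 282737 and 390547 in knockdowns. Levels are given as counts per 100000 circular counts of the library. Circular cDNA was amplified without molecular identifiers, so counting intervals cover counting error only. In total RNA of a cell population, fewer cells with a circle and fewer copies per cell cannot be told apart.

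LCOR encodes a ligand-dependent nuclear receptor corepressor, which binds hormone receptors and recruits CtBP proteins and histone deacetylases. LCORL encodes a related protein that shares its DNA-binding domain. Longer products of both genes, called PALI1 and PALI2, act as accessory subunits of Polycomb repressive complex 2 (PRC2), which methylates histone H3 to silence genes. A circular RNA forms when the downstream end of an exon is spliced back to the upstream end of the same or an earlier exon. Such molecules have no free ends and are stable.

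LCORL lies on chromosome 4, from 17841187 to 18021875 on the minus strand, and LCOR on chromosome 10, from 96832298 to 96995956 on the plus strand (RefSeq, GRCh38.p14). The deposited table gives, for most circles, the dinucleotides at the back splice, a pair of shift values and the bases that are equivalent at both of its ends. Entries with AG-GT, shifts of 0 and no asterisk are called plain sites below. The meaning of the asterisk is not given in the sources used here. These short equivalent stretches are the only circle sequences deposited. They are shown for the LCORL circles with at least 10 counts, except the 3037 nt circle, for which none is given.
LCORL 4826 nt circle: TAG
LCORL 5088 nt circle: AG
LCORL 5172 nt circle: TCCCTAG
LCORL 4920 nt circle: TAGG
All 4 stretches contain AG, and on which strand they are written is not given in the sources used here.

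Of the 52 member circles, 43 had at least 1 count and 9 had none in any library. Of LCORL, 18 of 22 were detected, with 205 counts in all, and of LCOR 25 of 30, with 118 counts. Only 8 circles reached 10 counts over the libraries, 5 of LCORL and 3 of LCOR, and entered the fit across all circles. The remaining 35 detected circles had fewer. They held 42 counts of LCORL and 65 of LCOR.

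The summed LCORL circles were 10.1 times as abundant in the knockdown libraries as in the controls. Control replicates 1 and 2 gave 17 and 10 LCORL counts, and each knockdown replicate gave 89. Per 100000 this was 3.60 and 1.80 against 31.5 and 22.8. Both knockdown libraries lay far above both controls. The means were 2.70 ± 1.27 in controls and 27.1 ± 6.14 in knockdowns (SD, n = 2). Against control replicate 2 alone the ratio was 15.1, and against control replicate 1 alone it was 7.54. In the fit over 5911 host genes, of which 1.51% were called at an adjusted p of 0.05 in edgeR (1.47% higher and 0.0338% lower) and 39.9% had a log2 fold change above 0, the log2 fold change of LCORL was 3.70 ± 0.43 (SE). That contrast chose LCORL, so nothing is read from the share called.

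Control replicate 1 held a kind of LCORL circle that the other libraries nearly lacked. Of intron-type LCORL circles, 12 counts came from control replicate 1, none from the other control and 1 from each knockdown. Exon-type LCORL circles had 5 and 10 counts in controls and 88 in each knockdown. Their levels were 1.06 and 1.80 against 31.1 and 22.5 per 100000, a ratio of means of 18.8. The intron-type counts were high in control replicate 1, and without them the LCORL difference was larger. In the whole table the same library had a larger share of intron-type counts, 19.7% against 9.93% to 10.6% in the others. It had fewer counts at plain sites, 50.1% against 71.0% to 71.5%. It also had more counts in circles that no other library shared, 35.2% against 5.70% to 14.8%. The part of this in the LCOR and LCORL values beyond the counts given here was not tested.

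**Figure D1:**
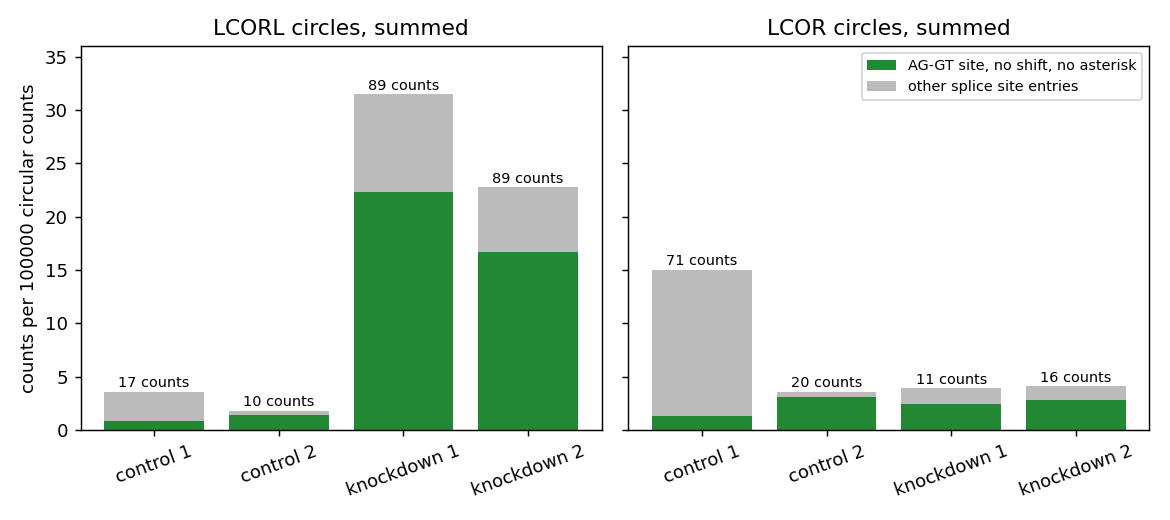
Stacked bars give the summed level of LCORL circles (left) and LCOR circles (right) in each library, in counts per 100000 circular counts, split into plain AG-GT sites (green) and all other splice site entries (grey). LCORL stands at 31.5 and 22.8 in knockdowns against 3.60 and 1.80 in controls, while the LCOR bar of control replicate 1 is tall through its grey portion.

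The LCORL signal was centred on 1 long exon. The most abundant LCORL circle, at chr4:17873388-17878213, consists of this exon alone and is 4826 nt long. It had 2 and 3 counts in controls versus 40 and 44 under knockdown. Its level was 0.423 and 0.539 against 14.1 and 11.3 per 100000, with no overlap between groups. The means were 0.481 ± 0.0818 and 12.7 ± 2.04 (SD, n = 2). The control values rest on 5 counts. The ratio of pooled counts was 25.7, with an exact 95% interval of 10.6 to 81.1 for counting error. Its log2 fold change in edgeR was 4.59 ± 0.50 (SE), in a fit that called 0 of 21576 circles at an adjusted p of 0.05 and 13.6% at an unadjusted p under 0.05, with 39.7% above 0. DESeq2 called 1085 circles on the same counts, 934 of them higher and 151 lower, and gave no adjusted p to 11265.

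The second LCORL circle joined the same exon to exons further downstream. It runs over chr4:17843516-17878213, holds 3 exons and is 5088 nt long. It had 0 and 2 counts in controls versus 17 and 10 under knockdown. Its pooled ratio was 20.6, with an exact interval of 5.19 to 179. Its splice site entry carries the asterisk. Both knockdown libraries lay above both controls, and knockdown replicate 1 was the higher at 6.01 per 100000 against 2.56.

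The third circle uses an end inside the long exon. It spans chr4:17875177-17878213, has 1 exon and is 3037 nt long. It had 1 and 0 counts in controls versus 7 and 10 under knockdown, a pooled ratio of 26.0 with an exact interval of 4.07 to 1086. That interval is wide because 1 control count stands behind it. The knockdown libraries were near each other, at 2.48 and 2.56 per 100000. This circle, too, has an asterisk in its splice site entry.

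Both other LCORL circles with at least 10 counts ran upstream from the same exon. The circle at chr4:17873388-17909345 (3 exons, 5172 nt) gave 1 and 2 counts in controls and 7 in each knockdown. Its pooled ratio was 7.13, with an exact interval of 1.99 to 38.7. The circle at chr4:17873388-17886161 (2 exons, 4920 nt) gave 0 and 2 counts in controls versus 6 and 2 under knockdown. It was the least even of the LCORL circles named here, since knockdown replicate 2, at 0.512 per 100000, lay close to control replicate 2, at 0.359. Its pooled ratio was 6.11, with an exact interval of 1.22 to 59.1. The log2 fold changes of these last 4 circles were 4.26 ± 1.03, 4.24 ± 1.21, 2.73 ± 0.92 and 2.64 ± 1.78 (SE), in the order given. With 1 library left out, the first ranged from 3.60 to 6.90 (without control replicate 2). The next ranged from 3.23 (without control replicate 2) to 6.49 (without control replicate 1). The 5172 nt circle stayed between 2.65 and 2.96. The 4920 nt circle ranged from 1.55 (without knockdown replicate 1) to 5.18 (without control replicate 2). Where this leaves no control count, the fitted value depends on the prior count.

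**Figure D2:**
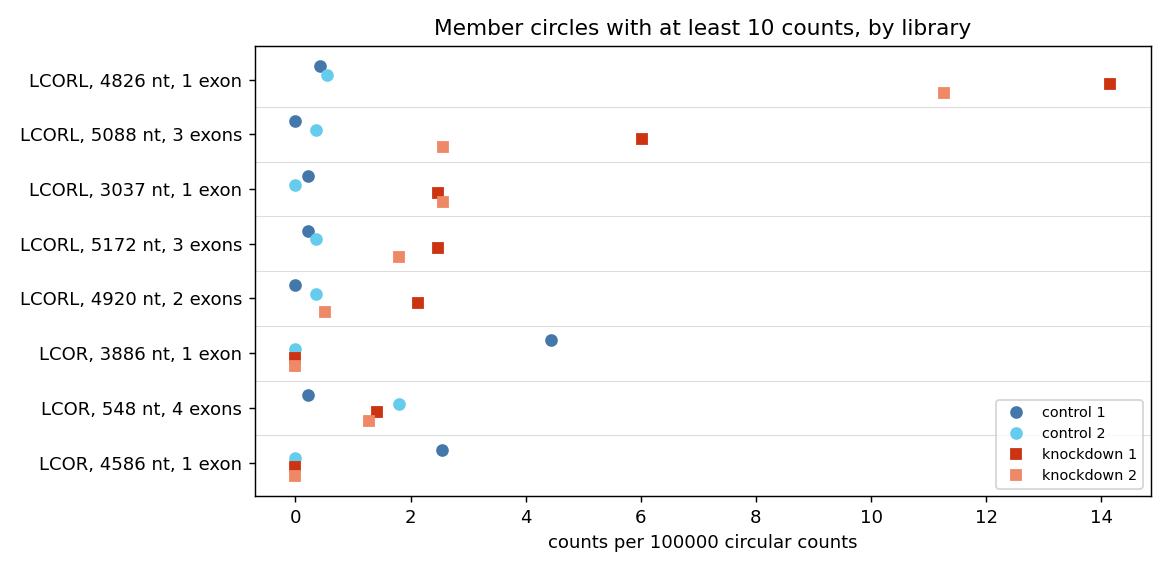
Each row is a member circle with 10 or more counts in all, and each point its level in 1 library, in counts per 100000 circular counts (circles for controls, squares for knockdowns). In the 5 LCORL rows both squares lie to the right of both control points, and in the 3886 nt and 4586 nt LCOR rows only control replicate 1 is above 0.

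All 5 LCORL circles with at least 10 counts had both knockdown libraries above both controls. This was so for 23.2% of the 21576 circles with that many counts, and for 15.9% of host genes (36.1% had both below). The choice of LCORL used this contrast. Of the counts of these 5 circles, 150 came from knockdowns and 13 from controls, so the minimum of 10 counts was reached mainly through the knockdowns. The count is therefore a description only and shows no enrichment over that share. These 5 circles overlap in sequence and share splice sites, and so are not independent of each other.

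The splice sites of the long exon accounted for most LCORL counts. Of the 18 detected LCORL circles, 8 used its upstream or downstream splice site at the back splice, and they held 178 of the 205 counts. They had 4 and 10 counts in controls versus 84 and 80 under knockdown and so were far higher in both knockdowns. The upstream site was used by 4 circles with 3, 6, 64 and 67 counts, in the order control 1, control 2, knockdown 1 and knockdown 2. The downstream site was used by 5 circles with 3, 7, 60 and 57 counts. Both ends of the exon thus took part. The 10 detected LCORL circles that used neither site had 13 and 0 counts in controls versus 5 and 9 under knockdown. In this remainder control replicate 1 was high, control replicate 2 was at 0, and the groups overlapped.

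Some rarer LCORL circles, named after their values had been seen, had counts in the knockdown libraries only. Others did not: 5 LCORL circles with 11 counts were seen only in control replicate 1. A rare circle that holds the long exon, at chr4:17866999-17878213, had 0 and 1 counts in controls versus 0 and 3 under knockdown. The circle at chr4:17873388-17884752 (2 exons, 5658 nt) had 0 counts in both controls and 4 and 2 in knockdowns. Its knockdown mean was 1.64 times a floor of 3 counts in each control library. Knockdown replicate 2, at 0.512 per 100000, lay below that floor (0.635 and 0.539 in control replicates 1 and 2). The circle at chr4:17873388-17876834 (1 exon, 3447 nt), which lies inside the long exon, had 0 counts in controls versus 3 and 2 under knockdown. Its knockdown mean was 1.34 times the floor, and its knockdown replicate 2, also at 0.512 per 100000, lay below it. Further upstream, the circle at chr4:17909094-17972885 joins 4 exons in 528 nt and has none of the long exon. It had 0 counts in controls versus 2 and 4 under knockdown, a mean 1.47 times the floor. These ratios take the few knockdown counts as exact, so they are not lower bounds.

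**Figure D3:**
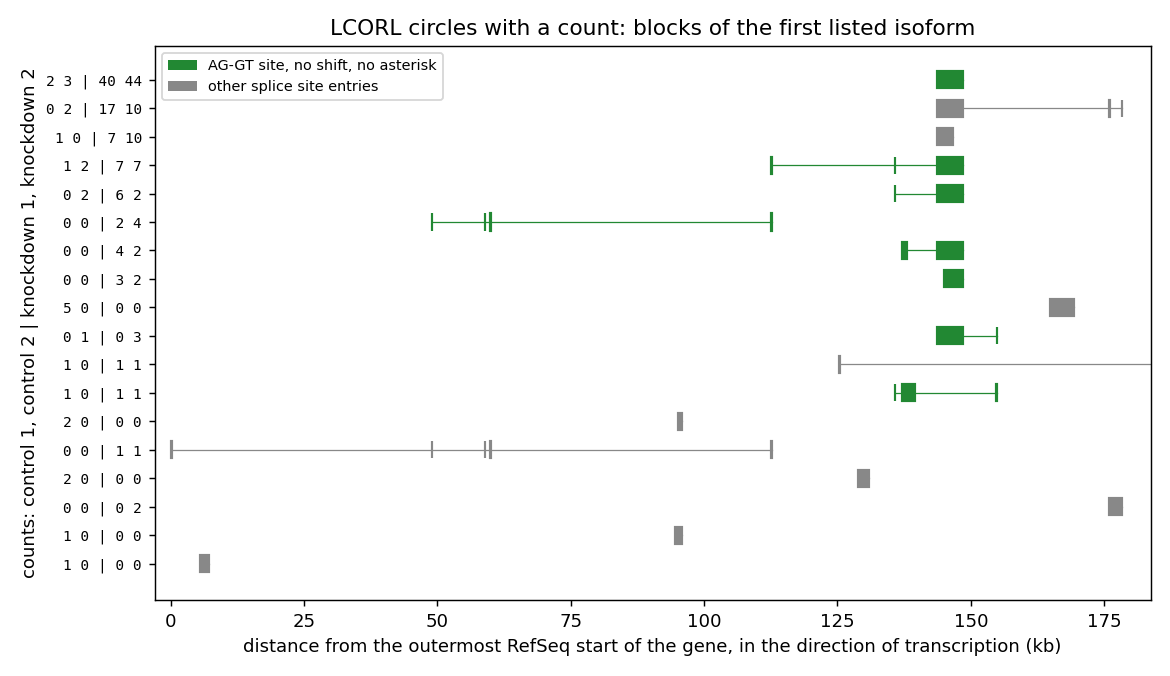
Each row is an LCORL circle with a count, drawn by the blocks of its first listed isoform against distance from the outermost RefSeq start in kb, with a line from the start to the end of the circle and counts by library at the left (blocks have a minimum drawn width). The rows with most knockdown counts hold all or part of the same long block, and the circle that also names DCAF16 continues beyond the right edge.

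The share of LCORL counts in the 4826 nt circle was 44.9% of 89 in knockdown replicate 1 (exact 95% interval 34.4% to 55.9%) and 49.4% of 89 in knockdown replicate 2 (38.7% to 60.2%). In the controls it was 11.8% of 17 (1.46% to 36.4%) and 30.0% of 10 (6.67% to 65.2%). The control intervals are wide. That of control replicate 2 includes both knockdown values, so a change in the make-up of LCORL circles was not detectable against that library at this depth. That of control replicate 1 lies below both knockdown shares, but 12 of the 17 counts behind it were of intron type. Without the 4826 nt circle the remaining LCORL circles still had 15 and 7 counts in controls versus 49 and 45 under knockdown, a ratio of mean levels of 6.51.

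Weighted by counts, the LCORL circles were long. The count-weighted median length was 4826 nt for LCORL, against 1303 nt for the whole table and 1492.5 nt for LCOR. Of the LCORL counts, 178 came from knockdowns and 27 from controls, so this weighting follows the knockdowns. Without weights, the median over detected circles was 2869.5 nt for LCORL, 1469 nt for LCOR and 1349 nt for the whole table. Circles of 1 block, of any type and so with intron-type circles included, held 61.0% of LCORL counts and 23.3% of all counts. Among exon-type LCORL circles alone, those of 1 exon held 59.7% of counts. In the whole table, single-exon circles of exon type held 193760 of 1702290 counts. Among 649 single-exon circles of exon type with plain sites and at least 10 counts, 13 (2.00%) were at least 4826 nt long, this circle included. Of those 13, 5 had both knockdown libraries above both controls, 1 had both below and 7 overlapped. Among all circles with at least 10 counts, 373 were at least that long. Of these 108 lay above the controls in both knockdown libraries and 22 below. Over all 21576 circles the shares were 23.2% above and 22.9% below. Other long circles thus also lay above the controls more often than below, and no test of this was made.

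The outer end of 1 rare LCORL circle falls on an annotated start of the gene. It spans chr4:17909094-18021755, joins 5 blocks in 686 nt and had 0 counts in both controls and 1 in each knockdown. Position 18021755 is the first transcribed base of the RefSeq promoter window of LCORL, whose second annotated start lies at 18021875. The splice site entry of this circle is AC-GT with shifts of 0 and 4, not a plain site. The 70 bases around that start on the minus strand, chr4:18021706-18021775 (RefSeq, GRCh38.p14), are shown because the circle ends there, with the bases inside the circle in capitals.
LCORL start: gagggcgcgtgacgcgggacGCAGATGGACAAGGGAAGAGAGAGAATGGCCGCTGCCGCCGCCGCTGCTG
This circle rests on 2 counts.

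The LCOR circles differed from those of LCORL in which libraries held them. Control replicates 1 and 2 gave 71 and 20 LCOR counts, and knockdown replicates 1 and 2 gave 11 and 16. The levels were 15.0 and 3.59 against 3.89 and 4.10 per 100000. Control replicate 1 was high, the other 3 libraries lay between 3.59 and 4.10, and the groups overlapped. The means were 9.31 ± 8.09 and 3.99 ± 0.146 (SD, n = 2), and the log2 fold change was -0.81 ± 0.61 (SE) in edgeR. Without control replicate 1 it was 0.33 ± 0.51 (SE). The sign of the LCOR difference thus depended on that library.

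The LCOR excess of control replicate 1 lay in the downstream portion of the gene. Downstream of the last block that plain-site LCOR circles use, 16 circles were detected, which by this definition hold no plain site. Control replicate 1 gave 59 of their counts, the other control 3, and the knockdowns 2 and 5. The most abundant was a 3886 nt circle of 1 block at chr10:96983314-96987199, with 21 counts in control replicate 1 and 0 in the other 3 libraries. A 4586 nt circle at chr10:96981426-96986011 had 12 counts in control replicate 1 and 0 elsewhere. These 2 circles overlap each other. In the whole table, 7.80% of circles with at least 10 counts had all of them in control replicate 1.

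Upstream of that point the LCOR circles were even across libraries in their sum, but not singly. There 9 detected circles, 5 of them seen in 1 library only, together had 12 and 17 counts in controls versus 9 and 11 under knockdown. Their levels were 2.54 and 3.05 against 3.18 and 2.82 per 100000, a ratio of means of 1.07. The groups overlapped, and the ratio of pooled counts was 1.05 with an exact 95% interval of 0.565 to 1.93.

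**Figure D4:**
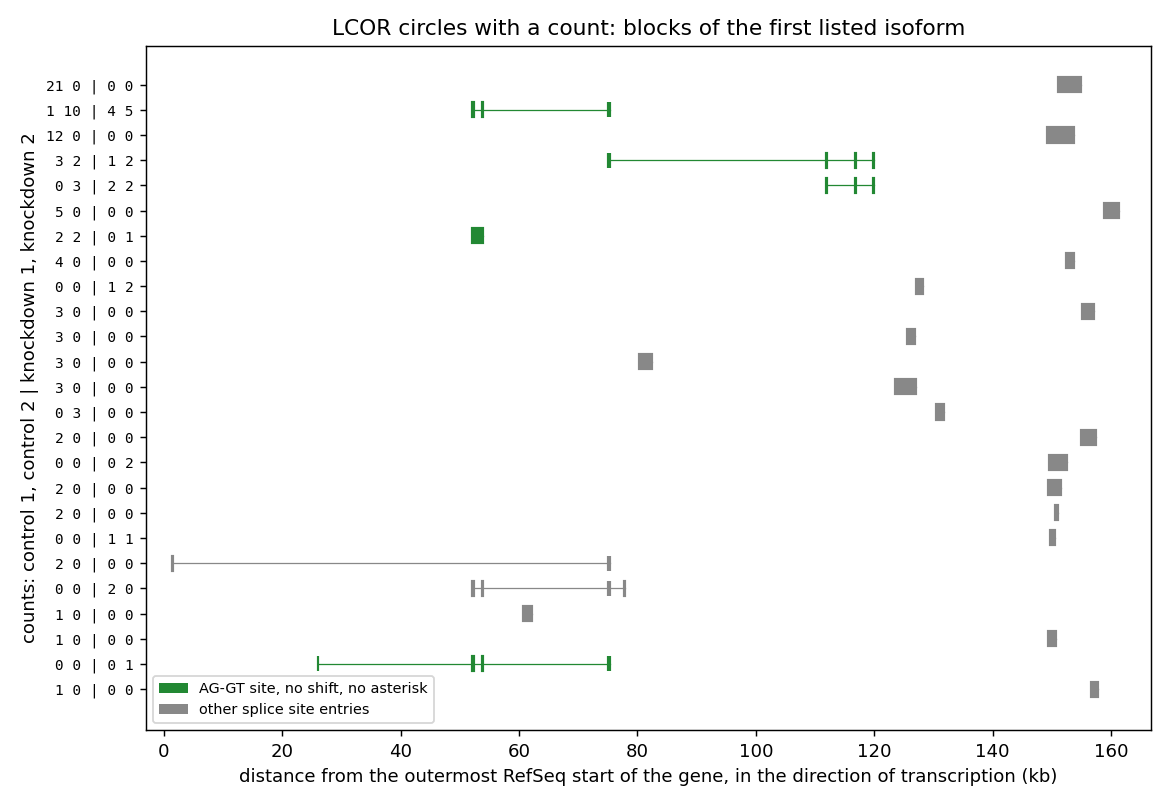
Each row is an LCOR circle with a count, drawn as for LCORL against distance from the outermost RefSeq start in kb, with counts by library at the left. Plain-site circles (green) lie in the upstream portion, and 4 of 5 are found in more than 1 library, while the grey single blocks downstream are mostly from control replicate 1.

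Plain-site LCOR circles joined named exons of the upstream portion. The most abundant, at chr10:96884403-96907747, has 4 exons in 548 nt and is listed with 2 isoforms. It had 1 and 10 counts in controls versus 4 and 5 under knockdown, which is 0.212 and 1.80 against 1.41 and 1.28 per 100000. The controls lay on both sides of the knockdowns. A circle of 5 exons and 661 nt at chr10:96907265-96952196 had 3 and 2 counts in controls versus 1 and 2 under knockdown. A circle of 3 exons and 515 nt at chr10:96944113-96952196 had 0 and 3 counts in controls and 2 in each knockdown. All 5 plain-site LCOR circles together had 6 and 17 counts in controls versus 7 and 11 under knockdown.

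The plain-site share of the counts turned on control replicate 1. Plain sites held 68.3% of LCORL counts, 34.7% of LCOR counts and 65.4% of all counts. Without control replicate 1 the shares were 72.3%, 74.5% and 71.3%, so the genes then lay close together. In that library alone they were 23.5%, 8.45% and 50.1%. Of the detected circles, 8 of 18 had a plain site for LCORL and 5 of 25 for LCOR, beside 31.9% of all detected circles. For LCORL 6 of 18 were seen in 1 library only, 5 of them in control replicate 1. For LCOR this was 19 of 25, with 15 of them in control replicate 1. Over all genes, 58.3% of detected circles were seen in 1 library, and 31.7% only in control replicate 1. Restricted to plain sites, LCORL had 0.847 and 1.44 per 100000 in controls and 22.3 and 16.6 in knockdowns, with a pooled ratio of 16.3 (exact interval 9.02 to 32.4). The same restriction gave 1.27 and 3.05 against 2.48 and 2.82 for LCOR, where the groups overlapped. More than 1 isoform was listed for 4 member circles, 2 of each gene, with no count per isoform.

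Host genes whose circular counts lay nearest to those of LCORL included SGO2, DNAJC10, LYPLAL1 and ENSG00000227227. The distance used the same levels that chose LCORL, so genes with a like rise under knockdown are returned by construction. Likeness was the Euclidean distance of centred log2 levels over 4 libraries among 3365 host genes, between 0.65 and 0.83 for these 4. SGO2, a protector of centromeric cohesion, had 20 and 15 counts in controls versus 110 and 189 under knockdown. DNAJC10, a chaperone of the endoplasmic reticulum, had 18 and 11 counts against 54 and 77. For LCOR the nearest were HADHA, TP53BP2, ANKRD46, HUS1 and EWSR1, with distances between 0.096 and 0.14. HADHA, a subunit of the mitochondrial enzyme of fatty acid oxidation, had 38 counts in control replicate 1 and 9, 5 and 8 in the other libraries.

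A list of partners of LCOR or LCORL, other corepressor genes and nuclear receptors was examined as host genes of circles. All are termed partners below, though binding to either protein is not implied for each. Of 49 listed genes, 38 had circles that named them alone and 33 could be tested. SUZ12, a core subunit of PRC2, rose, and it was the only partner called in edgeR (1 of 33, beside 1.51% of all host genes). SUZ12 had 28 and 77 counts in controls versus 136 and 180 under knockdown, or 9.88 ± 5.59 and 47.1 ± 1.42 per 100000 (SD, n = 2). In edgeR its log2 fold change came to 2.50 ± 0.50 (SE), adjusted p = 0.0448 in edgeR, and between 2.37e-37 and 0.126 over the alternatives. The call was lost without knockdown replicate 1, without knockdown replicate 2 and in 4 other settings. SUZ12 has a near-identical pseudogene copy, and reads could be split between them.

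No other PRC2 gene passed the threshold in edgeR with all libraries. EED (higher) and EZH2 (lower) passed when each control replicate in turn was left out, and JARID2 (lower), a subunit that helps recruit the complex, passed without control replicate 2. EZH2, the methyltransferase of the complex, had 157 and 206 counts in controls versus 39 and 51 under knockdown. In edgeR its log2 fold change came to -1.09 ± 0.37 (SE), adjusted p = 0.204 in edgeR. EED, the subunit that reads the methyl mark, had 13 and 8 counts against 12 and 22, with 1.59 ± 0.62 (SE), adjusted p = 0.273 in edgeR. Of the 9 PRC2 genes tested, 3 had a log2 fold change above 0 and 6 below, with a median of -0.40 beside -0.27 for all host genes.

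Corepressor partners gave no call with all libraries. For CtBP proteins and histone deacetylases 5 of 11 genes were tested, for the H3K9 methyltransferases and demethylase 2 of 3, and for the nuclear receptor corepressors with their platform 8 of 10. For nuclear receptors it was 8 of 12, and KLF6 was tested as well. In these 4 groups and KLF6, edgeR called 0 genes at an adjusted p of 0.05 and 0 at an unadjusted p under 0.05, beside 15.0% of all host genes, and DESeq2 called 0 among those to which it gave an adjusted p. Without control replicate 1, HDAC9 (higher), NRIP1 and RCOR1 (both lower) passed, and without control replicate 2, HDAC1, HDAC3 and TBL1X (all lower) passed. These 6 genes are named after their values had been seen. Among all genes of the 4 groups and KLF6, the most counts were those of KDM1A, a histone demethylase of corepressor complexes. KDM1A, which is not one of those 6 genes, had 126 and 113 in controls and 37 and 47 in knockdowns. In edgeR its log2 fold change came to -0.58 ± 0.34 (SE), adjusted p = 0.463 in edgeR. Over the 33 partners the median log2 fold change was -0.21, with 10 above 0 and 23 below.

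**Figure D5:**
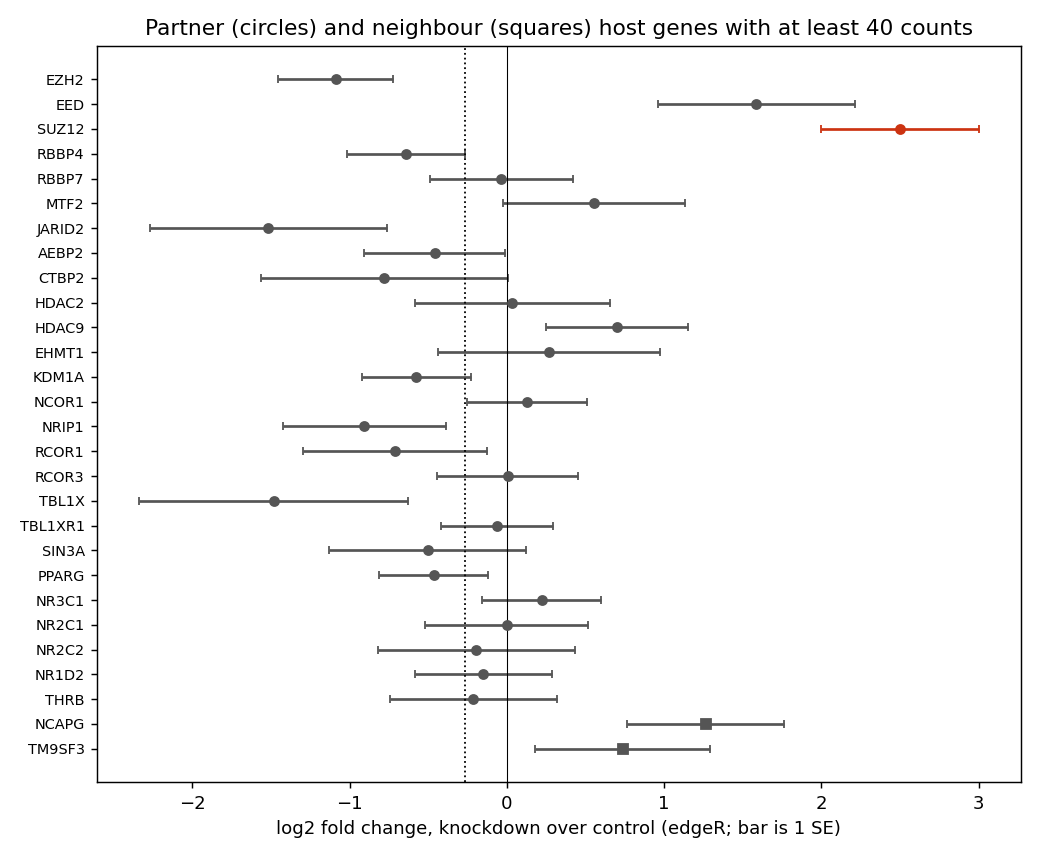
Points give the log2 fold change of partner host genes (circles) and neighbouring host genes (squares) with at least 40 counts, knockdown over control, with bars of 1 SE from edgeR. The dotted line is the median of all host genes at -0.27, and SUZ12 at 2.50 is the gene past the threshold (red).

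Genes beside LCORL and LCOR were compared as well. Of 16 neighbours, 5 had enough counts, and 0 passed an adjusted p of 0.05 in edgeR, with 1 at an unadjusted p under 0.05, beside 15.0% of all host genes. DESeq2 also called 0 of those to which it gave an adjusted p. NCAPG, a condensin subunit next to LCORL, had 16 and 20 counts in controls versus 19 and 27 under knockdown. In edgeR its log2 fold change came to 1.26 ± 0.50 (SE), adjusted p = 0.273 in edgeR. TM9SF3, a membrane protein gene near LCOR, had 63 and 231 counts in controls versus 101 and 164 under knockdown, so the controls lay on both sides. MMS19, a factor that delivers iron-sulfur clusters, had 5 and 8 counts in controls and 0 in both knockdowns, where 3 counts are still allowed in each. Calls among neighbours depended on the controls: without control replicate 1 MMS19 passed, and without control replicate 2 NCAPG and TM9SF3 passed. DCAF16 shared 1 intron-type circle with LCORL, which had 1, 0, 1 and 1 counts.

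The cell type could be checked only through circles. Circles named EGFR, EPCAM, CDH1 or KRT5 alone, and none of those examined named KRT8, KRT18 or KRT19 alone. EGFR gave most of their counts, with 115 and 52 in controls versus 12 and 21 under knockdown. EPCAM had 9 and 13 versus 8 and 10, and CDH1 12 and 3 versus 4 and 6. Their log2 fold changes were -1.41 for EGFR, 0.63 for EPCAM and 0.34 for CDH1, and none passed an adjusted p of 0.05 in edgeR. Of 6 markers of leukocytes, endothelium and stroma (PTPRC, PECAM1, COL1A1, COL1A2, COL3A1 and PDGFRB), 0 had a circle that named them alone. Library pairs differed unequally over circles with at least 40 counts in the pair, with a mean chi-square per circle of 18.0 between controls and 2.28 between knockdowns. Against knockdown replicates 1 and 2 it was 44.1 and 43.5 for control replicate 1. For control replicate 2 it was 23.5 and 25.2, not far above the value between controls. Antisense circles at these genes, left out by the rule, had 2, 2, 2 and 4 counts for LCORL and 1, 5, 3 and 0 for LCOR.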

How the data were processed

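The 4 libraries were made by copying total RNA with the Induro reverse transcriptase and amplifying the cDNA with phi29, per the labels' protocols. The authors deposited raw counts per back-splice position, called with CIRI-long per the file columns. GRCh38.p14 and DESeq2 are named in the submitters' processing notes, and other steps were not given in the sources used here. A scaled table, whose columns sum to 100000, was not used. Circle length is another deposited column (nt) and gives no measurement per library.

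Groups came from the sample titles. Counts of circles that name 1 gene and are not antisense were summed per host gene. edgeR 4.0.16 (R 4.3.3; TMM, quasi-likelihood F test, default options, Benjamini-Hochberg) was run on all circles, and on all host genes, with at least 10 counts over the libraries. DESeq2 1.42.0 and the other alternatives are given in the closing section. SEs were derived from the F statistic. Scripts were tested on simulated data. Exact intervals are Clopper-Pearson.

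Members, gene lists and tests were chosen with earlier results of these data known. Named were member circles with at least 10 counts (at most 12 per gene), listed genes past an adjusted p of 0.05 plus the 3 with most counts per list, and the 5 nearest host genes by distance (pseudocount 0.5 per 100000, at least 40 counts). Of the nearest host genes, 1 is not reported here. Rarer circles, EED and JARID2 were named after their values had been seen. Splits by splice site and by region were made after seeing the data. Circle sequences and flanking introns were not analysed here, as no genome was used.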

Additional observations from a re-analysis of the deposited data

How the results depend on the processing

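The log2 fold change of summed LCORL circles was 3.70 and stayed above 0 in every alternative run. It was 4.47 with exon circles only and 3.48 to 4.03 when 1 library was left out. That of LCOR, -0.81, reversed to 0.33 without control replicate 1 (range -1.31 to 0.33 over single libraries left out) and to 0.24 with plain sites only, an alternative chosen after seeing the data. The median over single LCORL circles, 4.24, was 2.49 with no filter and 3.60 (without control replicate 1) to 4.62 when 1 library was left out. The median over single LCOR circles, -5.64, rests on fitted values of circles with 0 counts in a group. It was -3.08 with no filter, 0.36 where 2 libraries had to hold at least 5 counts, and -6.40 to -0.21 when 1 library was left out. The 548 nt LCOR circle ranged from -0.21 (without control replicate 1) to 2.33. Causes were not tested.

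The count of partner genes called, 1, was 0 with the newer quasi-likelihood method, 0 with at least 5 counts in 2 libraries, 0 with circles counted for every gene they name and 0 for the first gene named. It was 6 without control replicate 1, 7 without control replicate 2 and 0 with each knockdown library in turn left out. With the replicate number as a block, LCORL was at 3.72, LCOR at -0.59, the median LCORL circle at 4.12, the median LCOR circle at -5.36 and the partner count at 1. Same-numbered libraries had deviations with a correlation of 0.0706 over 4944 circles, and the numbers were treated as names. Each of the 5 LCORL circles with at least 10 counts has 1 to 5 control counts behind it, with 2 libraries a group. Their ratios have wide counting intervals, which cover counting error only and not the spread between libraries.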
